A study of Mus musculus with 8 samples.

Results

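Gnat1, Sag, Pdc, Rcvrn, Pde6g, Pcp2, Rlbp1, Glul and Slc1a3 are genes by which retinal neurons and glia are recognised, and their RNA was followed here in macrophages isolated from the injured mouse retina. They are 9 of the 22558 gene symbols in the deposited tables, taken by symbol and grouped by the cell for which each is known: 5 rod photoreceptor genes, 1 bipolar cell gene and 3 Müller glia genes. The series holds 4 libraries of infiltrating macrophages, numbered 5 to 8, and 4 libraries of microglia, which live in the retina from development on, numbered 1 to 4. The genotype was Msi1-CreERT2/+; R26R-DTA/+ for both populations. The first allele expresses Cre under control of the gene for the RNA-binding protein Musashi1 and is activated by tamoxifen, and the second makes a toxin, the A chain of diphtheria toxin, after Cre recombination, so that recombined cells die. The mice were about 5 months old, on a mixed C57BL/6 and 129 background, and cells were taken from the retina at day 7 after injury, so that there was no uninjured group. Titles of the macrophage libraries begin with GFP and those of the microglia with cont. What GFP marks, how the cells were sorted and whether each library came from its own animals are points on which the sources used here say nothing, so p-values measure the spread between libraries, which may be technical.

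Rods turn light into an electrical signal through a cascade in which light leads to activation of the G protein transducin, transducin releases the phosphodiesterase PDE6 from its inhibitory subunit, and arrestin, recoverin and phosducin shut the cascade down or adjust its gain. Bipolar cells carry the signal from photoreceptors to the inner retina. Müller glia span the retina, take up glutamate through the transporter encoded by Slc1a3, convert it to glutamine with glutamine synthetase, encoded by Glul, and take part in the recycling of retinoids through the binding protein encoded by Rlbp1. Macrophages of the retina engulf dying photoreceptors after injury. Glul and Slc1a3 are also known to be expressed by macrophages and microglia themselves, whereas the rod genes are not known as macrophage genes. A bulk library gives the sum of all RNA in the sample: engulfed RNA, RNA of attached or admixed cells, free RNA and RNA made by the macrophages cannot be told apart, nor can fewer cells of a type and less RNA per cell.

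Levels are the FPKM that the authors deposited, a fragment count corrected for transcript length and library depth. FPKM summed to between 207077 and 512049 in macrophage libraries and to between 295881 and 392753 in microglial libraries. Depth, estimated from the step between low values, came to between 21.0 and 24.2 M fragments in macrophages, to 11.3 M in microglia 1 and to between 18.8 and 20.6 M in microglia 2 to 4. At that depth 3 fragments on a transcript of 2 kb correspond to between 0.0671 and 0.0771 FPKM in macrophages and between 0.0788 and 0.143 FPKM in microglia, and values near or below this rest on few fragments. Between 8814 and 10282 genes reached 1 FPKM in macrophages and between 5992 and 9505 in microglia, with the fewest in microglia 2. Some marker genes separated the populations: the antigen-presenting gene H2-Ab1 stood between 754 and 4010 FPKM in macrophages and between 8.70 and 33.7 FPKM in microglia, and the microglial transcription factor Sall1 stood at 0 or 0.0352 FPKM in macrophages and between 8.61 and 26.8 FPKM in microglia. Other microglial markers overlapped. Tmem119 stood between 106 and 365 FPKM in macrophages and between 179 and 339 FPKM in microglia. Cx3cr1 stood between 30.1 and 119 FPKM in macrophages and between 56.2 and 140 FPKM in microglia. The libraries within a population were not alike: 5 red blood cell genes summed to between 0.693 and 23.7 FPKM in macrophages, to 160, 165 and 2437 FPKM in microglia 1, 2 and 3, and to 0.683 FPKM in microglia 4. Summed Y-linked RNA lay between 0.0107 and 1.97 FPKM in macrophages, at 0.0533 FPKM in microglia 4 and between 11.7 and 25.8 FPKM in microglia 1 to 3. Xist, the RNA of the inactive X chromosome of females, lay between 4.84 and 7.94 FPKM in macrophages, at 4.78 FPKM in microglia 4 and below 0.001 FPKM in microglia 1 to 3, so that microglia 1 to 3 carried the RNA pattern of males and the other 5 libraries that of females, with some Y-linked RNA as well in macrophage 7 (1.97 FPKM).

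The 2 glial genes Slc1a3 and Glul were lower in infiltrating macrophages than in microglia in every library, and the rod genes and Pcp2 were on average lower but spread so widely that the populations overlapped. Rlbp1 was the gene with the opposite sign. Tested with limma on log2(FPKM + 1) among 9352 genes with at least 1 FPKM in 4 or more libraries, Slc1a3 passed an adjusted p of 0.05 and Glul just missed it. That is 1 of the 9 genes called lower and 0 called higher, where 2.34% of all tested genes were called, 0.695% lower and 1.65% higher. At an unadjusted limma p below 0.05, 5 of the 9 were lower (Sag, Pde6g, Pcp2, Glul and Slc1a3), against 3.42% of all tested genes. For Glul and Slc1a3 the exact permutation test gave p = 0.0286. For Sag, Pde6g and Pcp2 the exact permutation test gave p = 0.143, 0.114 and 0.257, all above 0.05. The genes were chosen with earlier results known, so this comparison with all tested genes is no test of enrichment. Of the 9 genes, 8 passed the level filter, and Rlbp1, below it, was tested in a fit of all 20428 genes with a value above 0, in which 0.25% were called. All 8 genes other than Rlbp1 had a negative difference, as had 32.9% of the tested genes, and the median difference of all tested genes was 0.37.

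**Figure D1:**
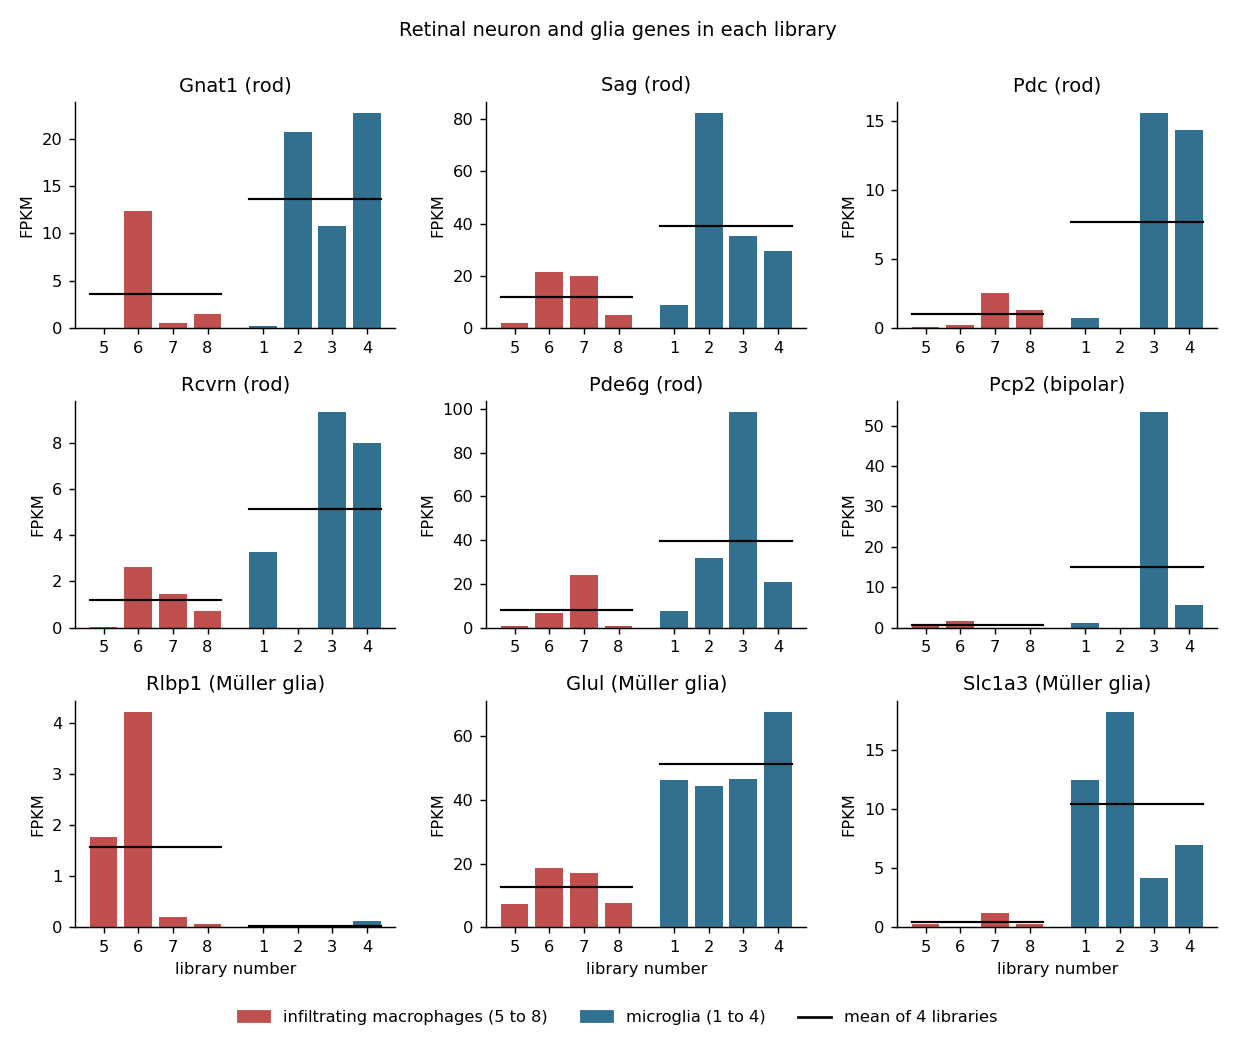
FPKM (vertical axes, linear, each with its own scale) of the 9 genes in each library, macrophages 5 to 8 in red on the left and microglia 1 to 4 in blue on the right of each panel; the black line is the mean of 4 libraries. Glul and Slc1a3 separate the populations, the rod genes vary several-fold within each population, and Pcp2 stands out in microglia 3.

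Windows of the RefSeq annotation from 250 bases before to 50 bases after the start of a gene (build GRCm38.p6) were present for 6 of the 9 genes. 4 of them are shown: those of the rod genes Sag and Pdc, which stand for the largest of the 3 groups, and those of Glul and Slc1a3, because these separated the populations. Capitals mark matches, on either strand, to 3 motifs. The first is the core bound by the photoreceptor factor CRX, written TAATCC and on the opposite strand GGATTA. The second, for the rod factor NRL, was searched as TGCTGA and on the opposite strand as TCAGCA. The third, for the myeloid factor PU.1, was searched as GAGGAA and on the opposite strand as TTCCTC. None of the matches shown overlaps another.
Sag, chr1:87803430-87803729, plus strand: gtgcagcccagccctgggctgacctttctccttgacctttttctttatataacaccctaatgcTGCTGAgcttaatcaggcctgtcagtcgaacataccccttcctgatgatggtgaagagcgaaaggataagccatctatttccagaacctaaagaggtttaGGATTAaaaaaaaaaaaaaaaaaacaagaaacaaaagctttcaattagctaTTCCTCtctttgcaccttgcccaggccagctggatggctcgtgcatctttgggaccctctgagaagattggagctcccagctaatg
Pdc, chr1:150319167-150319466, plus strand: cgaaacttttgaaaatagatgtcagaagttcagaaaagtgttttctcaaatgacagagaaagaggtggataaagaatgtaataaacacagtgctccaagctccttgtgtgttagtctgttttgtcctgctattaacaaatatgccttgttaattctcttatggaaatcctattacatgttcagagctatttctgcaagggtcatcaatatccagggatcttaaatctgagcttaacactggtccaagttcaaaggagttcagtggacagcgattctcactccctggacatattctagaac
Glul, chr1:153899679-153899978, plus strand: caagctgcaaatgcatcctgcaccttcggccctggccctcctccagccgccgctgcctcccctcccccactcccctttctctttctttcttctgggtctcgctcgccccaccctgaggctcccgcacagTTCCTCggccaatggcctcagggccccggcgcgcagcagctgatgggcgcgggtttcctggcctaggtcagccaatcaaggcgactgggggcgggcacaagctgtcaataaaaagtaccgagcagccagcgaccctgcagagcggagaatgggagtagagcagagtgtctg
Slc1a3, chr15:8710758-8711057, minus strand: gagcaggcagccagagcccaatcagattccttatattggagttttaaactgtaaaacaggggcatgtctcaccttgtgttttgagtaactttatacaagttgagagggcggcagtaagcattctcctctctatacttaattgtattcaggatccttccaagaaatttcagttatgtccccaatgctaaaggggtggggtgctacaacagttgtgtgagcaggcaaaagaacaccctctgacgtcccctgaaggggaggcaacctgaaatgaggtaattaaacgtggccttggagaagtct
The Sag window held each of the 3 motifs once, the CRX letters at -87, the NRL letters at -187 and the PU.1 letters at -36 relative to the start. The Glul window held the PU.1 letters once, at -121, and the windows of Pdc and Slc1a3 held none of the 3 motifs. Of 32851 windows of the same length, 7.06% held the CRX letters, 19.5% the NRL letters and 28.3% the PU.1 letters. A match is a run of letters and does not show that a factor binds there.

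Among the rod genes, Sag, which encodes rod arrestin, a protein that helps end the light response (mm9 chromosome 1, 89700255 to 89741732), was the one at 1 FPKM or more in all 8 libraries. It stood at 1.88, 21.3, 19.8 and 5.02 FPKM in macrophages 5 to 8, and at 8.93, 82.5, 35.1 and 29.6 FPKM in microglia 1 to 4. Macrophages 6 and 7 lay above microglia 1, so the populations overlapped, and the highest value belonged to microglia 2. The mean was 12.02 ± 9.99 FPKM in macrophages and 39.0 ± 31.1 FPKM in microglia (SD, n = 4 each), a difference of -1.71 ± 0.73 (SE) in log2(FPKM + 1) that did not pass the test (limma adjusted p = 0.277).

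Gnat1, the alpha subunit of rod transducin (chromosome 9, 107576805 to 107581923), stood at 0.0389, 12.3, 0.49995 and 1.52 FPKM in macrophages 5 to 8 and at 0.249, 20.7, 10.7 and 22.8 FPKM in microglia 1 to 4. High and low libraries occurred in both populations: macrophage 6 exceeded microglia 3, and microglia 1 was lower than macrophages 6 to 8. The difference was -1.79 ± 0.92 (adjusted p = 0.365). Pde6g, the inhibitory gamma subunit of the rod phosphodiesterase (chromosome 11, 120308924 to 120314797), had the largest difference of the rod genes. It stood at 0.840, 6.70, 24.0 and 0.556 FPKM in macrophages 5 to 8 and at 7.39, 31.6, 98.4 and 21.0 FPKM in microglia 1 to 4. Macrophage 7 lay among the microglial values, and the other macrophage libraries lay below all of them. The difference of -2.52 ± 0.84 did not pass (adjusted p = 0.135), but it did without macrophage 7 (-3.31, adjusted p = 0.0391), and it was -1.49 without microglia 2 and 3.

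Pdc encodes phosducin, which binds the beta and gamma subunits of transducin (chromosome 1, 152166547 to 152181036). It stood at 0.0377, 0.217, 2.51 and 1.33 FPKM in macrophages 5 to 8, and at 0.724 FPKM in microglia 1, 0 in microglia 2, and 15.6 and 14.3 FPKM in microglia 3 and 4. Rcvrn encodes recoverin, a calcium sensor of photoreceptors (chromosome 11, 67508828 to 67516857). Its levels were 0.0454, 2.61, 1.46 and 0.701 FPKM in macrophages 5 to 8, and 3.29, 0, 9.32 and 8.004 FPKM in microglia 1 to 4. Both genes were highest in microglia 3 and 4 and both were listed at 0 in microglia 2, the library with the most Sag. The differences were -1.35 ± 0.80 for Pdc and -1.16 ± 0.71 for Rcvrn, and neither passed (adjusted p = 0.438 and 0.457).

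The 5 rod genes together summed to 2.84, 43.2, 48.3 and 9.14 FPKM in macrophages 5 to 8, which averaged 25.9 ± 23.2, and to 20.6, 135, 169 and 95.7 FPKM in microglia 1 to 4, which averaged 105 ± 63.8 (SD, n = 4 each). Microglia 1 was the microglial library that fell within the macrophage range, and it also had the lowest estimated depth. As a share of all FPKM in the library the sum was at most 0.0233% in macrophages and at most 0.0431% in microglia.

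The rod genes did not keep a fixed proportion to each other. Gnat1 made up 1.37%, 28.6%, 1.04% and 16.7% of the rod sum in macrophages 5 to 8, and 1.21%, 15.4%, 6.34% and 23.8% in microglia 1 to 4. Sag exceeded Gnat1 by a ratio of 48.3, 1.73, 39.7 and 3.30 in macrophages 5 to 8 and of 35.9, 3.99, 3.27 and 1.30 in microglia 1 to 4, on the FPKM scale, which is per length. Pdc and Rcvrn together with Sag were present in a like proportion in microglia 3 and 4, where Pdc reached 44.5% and 48.5% of the level of Sag and Rcvrn 26.5% and 27.0%. In macrophage 8, Pdc reached 26.5% and Rcvrn 13.9% of the level of Sag. Microglia 2 combined the highest Sag with Pdc and Rcvrn listed at 0; it also had the fewest genes with any value above 0, at 11095 against between 13568 and 17925 in the other libraries.

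**Figure D2:**
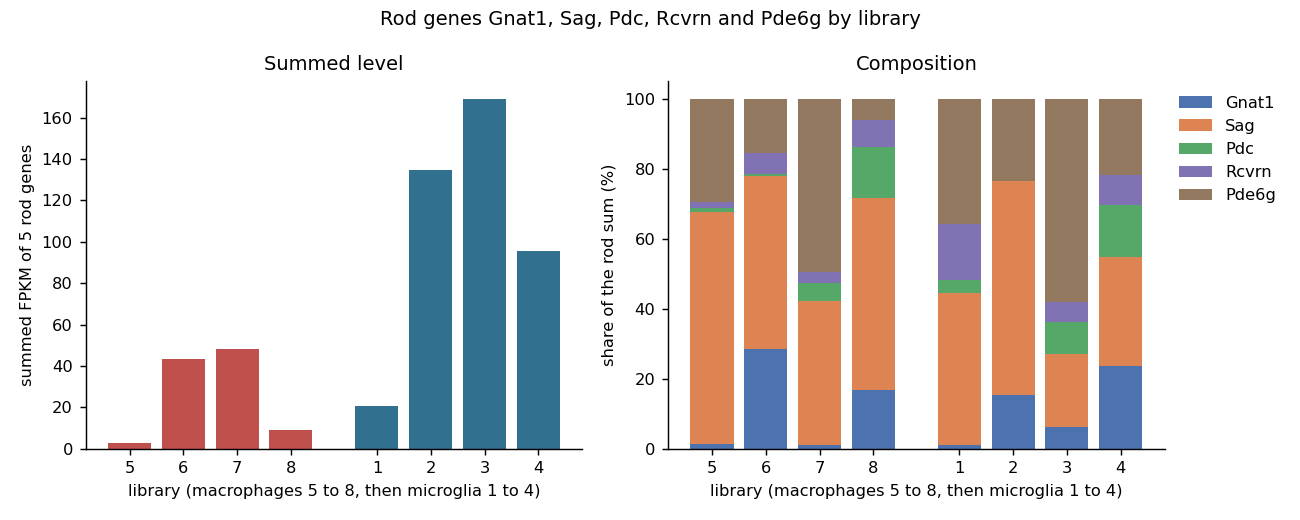
Left, summed FPKM of the 5 rod genes in each library, macrophages 5 to 8 in red and microglia 1 to 4 in blue; right, the share of that sum (%) contributed by each gene. The sum runs between 2.84 and 48.3 FPKM in macrophages and between 20.6 and 169 FPKM in microglia, and the mix of genes differs between libraries of the same population.

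Pcp2, a regulator of G protein signalling of the GoLoco family that in the retina marks rod bipolar cells (chromosome 8, 3623371 to 3625545), rested on 1 library. It stood at 0.583 and 1.62 FPKM in macrophages 5 and 6 and at 0 after rounding in macrophages 7 and 8, and at 1.13, 0, 53.3 and 5.61 FPKM in microglia 1 to 4. Microglia 3 stood far above all other libraries, and the remaining values of the populations overlapped. The mean was 0.549 ± 0.762 FPKM in macrophages and 15.0 ± 25.6 FPKM in microglia (SD, n = 4 each). The difference of -1.88 ± 0.85 (adjusted p = 0.300) became -0.76 without microglia 3 and -2.68 without microglia 2. Microglia 3 was also the library with 2437 FPKM of red blood cell genes. It had the highest levels of the cone gene Pde6h (133.6 FPKM) and the bipolar cell gene Gng13 (24.8 FPKM) as well. Whether any of its Pcp2 came from admixed cells was not tested.

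Slc1a3, the glutamate and aspartate transporter GLAST (chromosome 15, 8584124 to 8660807), showed the clearest separation of the 9 genes. It stood at 0.243 FPKM in macrophage 5, 0 in macrophage 6, 1.2001 FPKM in macrophage 7 and 0.236 FPKM in macrophage 8, and at 12.5, 18.2, 4.12 and 6.95 FPKM in microglia 1 to 4. The highest macrophage library lay below the lowest microglial library. The mean was 0.420 ± 0.532 FPKM in macrophages and 10.4 ± 6.23 FPKM in microglia (SD, n = 4 each), a difference of -2.90 ± 0.66 (SE) in log2(FPKM + 1) that passed the test (limma adjusted p = 0.0165; exact permutation p = 0.0286, two-sided, the smallest that 70 splits allow). The call was lost without macrophage 5, 6 or 8 (adjusted p = 0.0875, 0.0780 and 0.0985). With no filter on low values, a fit with more genes and newly estimated variances, the call was lost as well (limma adjusted p = 0.131). It was also lost with a term for Y-linked RNA beside population (adjusted p = 0.742, difference -2.50); microglia 4 was the one microglial library with the RNA pattern of females, as in the macrophages, so population and sex can hardly be told apart.

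Glul, glutamine synthetase (chromosome 1, 155747075 to 155756844), had the highest mean FPKM of the 9 genes in microglia. It stood at 7.39, 18.6, 17.1 and 7.54 FPKM in macrophages 5 to 8 and at 46.3, 44.4, 46.6 and 67.6 FPKM in microglia 1 to 4. The populations did not overlap, and microglia 1 to 3 lay close together while microglia 4 was higher. The mean of 12.7 ± 6.04 FPKM in macrophages was 4.04-fold lower than the 51.2 ± 11.0 FPKM in microglia (SD, n = 4 each). The difference of -2.03 ± 0.55 gave an adjusted p of 0.0504 in limma and an exact permutation p of 0.0286, the smallest the design allows. It passed after rescaling to an equal FPKM sum, upper-quartile, median-of-ratios and quantile normalization (adjusted p = 0.0312, 0.0197, 0.0148 and 0.0178) and not with the term for Y-linked RNA (0.747, difference -2.15). Glul and Slc1a3 are thus 2 of the 9 genes whose populations did not overlap, both lower in macrophages, which holds for 1.95% of all tested genes; for 5.69% the populations did not overlap and macrophages were higher.

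Rlbp1, the cellular retinaldehyde-binding protein (chromosome 7, 86519756 to 86531913), did not follow Glul and Slc1a3. It stood at 1.77, 4.21, 0.209 and 0.0673 FPKM in macrophages 5 to 8, was listed at 0 in microglia 1, 2 and 3 and stood at 0.120 FPKM in microglia 4. Macrophages 5 and 6 were high, macrophage 8 lay below microglia 4, and the values of macrophage 8 and microglia 4 correspond to few fragments. The difference of 1.01 ± 0.49 in the fit without a filter did not pass (adjusted p = 0.553; exact permutation p = 0.0571). The label of Müller glia genes therefore describes why these 3 genes were chosen and not a shared pattern: the microglial libraries had between 44.4 and 67.6 FPKM of Glul and at most 0.120 FPKM of Rlbp1.

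**Figure D3:**
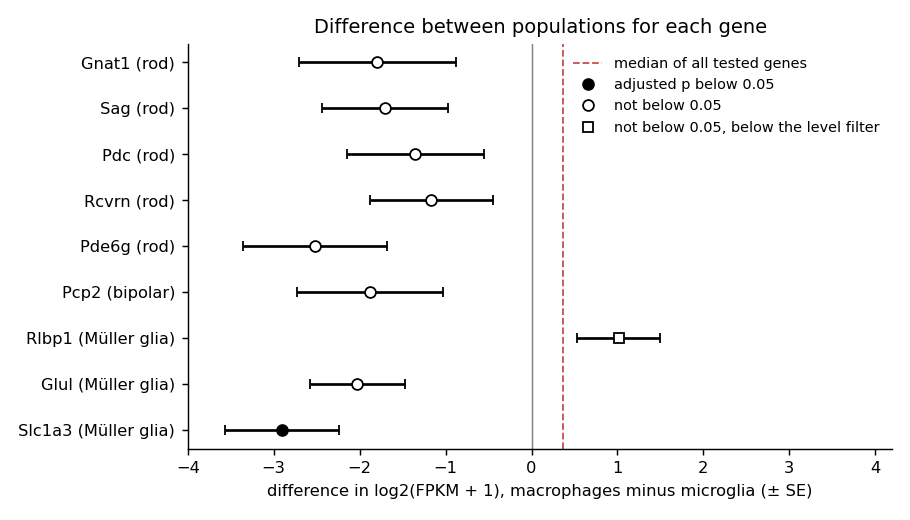
Difference in mean log2(FPKM + 1), macrophages minus microglia, for each of the 9 genes, with its standard error; the filled point is below an adjusted p of 0.05, open points are not, and the square marks the gene below the level filter. 8 genes lie left of 0 and of the dashed median of all tested genes at 0.37, and Rlbp1 lies to the right.

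Microglial marker genes were present in the macrophage libraries too. By limma, 4 of the 10 examined were called lower in macrophages and 0 higher, where 0.695% of all tested genes were called lower. All 10 had a negative difference. Tmem119 and Cx3cr1 were among those not called (limma adjusted p = 0.817 and 0.482). The 10 microglial marker genes examined summed to 1147, 2442, 1381 and 720 FPKM in macrophages 5 to 8 and to between 2494 and 3489 FPKM in microglia, and 8 or 9 of the 10 reached 1 FPKM in each macrophage library, against all 10 in each microglial library. Macrophages 6 and 7, the libraries with the highest sums of these markers, also had more Glul and more rod RNA than macrophages 5 and 8. All FPKM together summed to 300731, 512049, 207077 and 242139 in macrophages 5 to 8, with the largest total in macrophage 6. As a share of that total, the rod sum was 0.000944%, 0.00843%, 0.0233% and 0.00377%. The 3 Müller glia genes, mostly Glul, made up 0.00313%, 0.00446%, 0.00894% and 0.00324%. Single markers differed: the receptor P2ry12 stood at 17.3, 29.0, 4.54 and 10.6 FPKM in macrophages 5 to 8, lowest in macrophage 7. Sall1, a defining marker of microglia, was at 0 in macrophages 5, 6 and 8 and at 0.0352 FPKM in macrophage 7. The part of other cells in the levels of Glul and the rod genes was not tested.

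Other rod genes were also unevenly spread over the libraries. Of 27 further rod genes, 3, 11, 12 and 4 reached 1 FPKM in macrophages 5 to 8 and 8, 7, 22 and 16 in microglia 1 to 4. Of the 22558 symbols, 10101, 9480, 8814 and 10282 reached it in macrophages 5 to 8. In microglia 1 to 4, 8880, 5992, 8165 and 9505 symbols did. Macrophages 6 and 7 and microglia 3 and 4 were thus the libraries with the most rod genes. 9 of the 27 passed the level filter and 0 were called, with 2 at an unadjusted p below 0.05, a median difference of -0.46 against 0.37 over all tested genes, and -0.67 over all 27 without the filter against 0.10 over all genes.

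The most abundant of the further rod genes were Gnb1, a G protein beta subunit expressed in most cells, the guanylate cyclase activator Guca1a, and Gngt1, the gamma subunit of rod transducin. Gnb1 averaged 53.3 ± 32.6 FPKM in macrophages and 47.0 ± 5.34 FPKM in microglia, Guca1a 11.4 ± 7.91 and 29.8 ± 26.9 FPKM, and Gngt1 2.13 ± 2.03 and 13.6 ± 14.9 FPKM (SD, n = 4 each; adjusted p = 0.991, 0.395 and 0.210).

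More cone genes reached 1 FPKM in microglia 3 than in any other library, but not every cone gene was confined to it. Of 10 cone genes, 7 reached 1 FPKM in microglia 3, whereas between 1 and 3 did in each macrophage library and 1 or 2 in microglia 1, 2 and 4. Pde6h, the inhibitory subunit of cone phosphodiesterase, stood at 133.6 FPKM in microglia 3, at 1.57 FPKM in macrophage 8 and at 0 in the other 6 libraries. Gnb3, a G protein beta subunit of cones and bipolar cells, stood at 56.9 FPKM in microglia 3 and at most at 2.31 FPKM in macrophages and 2.40 FPKM in the other microglial libraries. Gngt2, known from cones and also from leukocytes, was abundant in all 8 libraries, at 195 ± 98.3 FPKM in macrophages and 267 ± 95.1 FPKM in microglia (adjusted p = 0.663). The cone gene Opn1mw stood at 40.1 FPKM in microglia 3 and at most at 1.23 FPKM in any other library. By contrast, Opn1sw stood at 11.2 FPKM in microglia 2, close to its 12.02 FPKM in microglia 3. Arr3 stood at 6.97 FPKM in microglia 3 and at 3.96 FPKM in macrophage 6. None of the 2 cone genes that passed the filter was called, and 0 had an unadjusted p below 0.05.

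Bipolar cell genes other than Pcp2 and Gng13 had low average levels in both populations. Of 13, between 0 and 4 reached 1 FPKM in macrophages, and 2, 0, 3 and 8 did in microglia 1 to 4. Gng13, a G protein gamma subunit of ON bipolar cells, averaged 1.93 ± 1.17 FPKM in macrophages and 9.05 ± 11.1 FPKM in microglia, with 24.8 FPKM in microglia 3 (adjusted p = 0.594). Trpm1, the cation channel of ON bipolar cells, averaged 0.677 ± 0.626 and 1.69 ± 0.863 FPKM (adjusted p = 0.526), and Prkca, protein kinase C alpha, 0.934 ± 1.25 and 1.02 ± 0.657 FPKM. Neither of the 2 that passed the filter, Gng13 and Trpm1, was called.

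Of 15 further Müller glia genes, 6 passed the filter, 1 was called higher in macrophages and 0 lower. Of all tested genes, 1.65% were called higher and 0.695% lower. The median difference of the 6 was 0.67 against 0.37 over all tested genes. In macrophages 5 to 8, 5, 8, 3 and 6 of the 15 reached 1 FPKM, and in microglia 1 to 4, 3, 4, 6 and 3 did. The called gene was Vim, the intermediate filament vimentin of many cell types, at 227 ± 122 FPKM in macrophages and 38.2 ± 10.8 FPKM in microglia (SD, n = 4 each; adjusted p = 0.0266). Crym, a thyroid hormone binding protein, averaged 9.42 ± 8.05 FPKM in macrophages and 19.3 ± 34.6 FPKM in microglia. Its microglial mean rested on microglia 2, at 71.0 FPKM, with at most 5.57 FPKM in the other microglial libraries. On log2(FPKM + 1) the difference for Crym was 0.49, higher in macrophages. Car2, a carbonic anhydrase, averaged 3.38 ± 3.69 FPKM in macrophages and 11.6 ± 10.7 FPKM in microglia. Neither Crym nor Car2 passed (limma adjusted p = 0.864 and 0.537).

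Few genes of the remaining retinal cells reached 1 FPKM. Of 14 amacrine and horizontal cell genes between 0 and 2 reached 1 FPKM in macrophages and 0 in every microglial library. Of 10 ganglion cell genes between 0 and 2 did so in macrophages and 1 or 2 in microglia, and 1 passed the filter, Rbpms, an RNA-binding protein, at 2.05 ± 2.96 FPKM in macrophages and 9.43 ± 5.70 FPKM in microglia (adjusted p = 0.171). Of 4 astrocyte genes between 0 and 1 reached 1 FPKM in macrophages and between 0 and 2 in microglia, and of 11 pigment epithelium genes 1 or 2 did in macrophages and 0 or 1 in microglia.

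**Figure D4:**
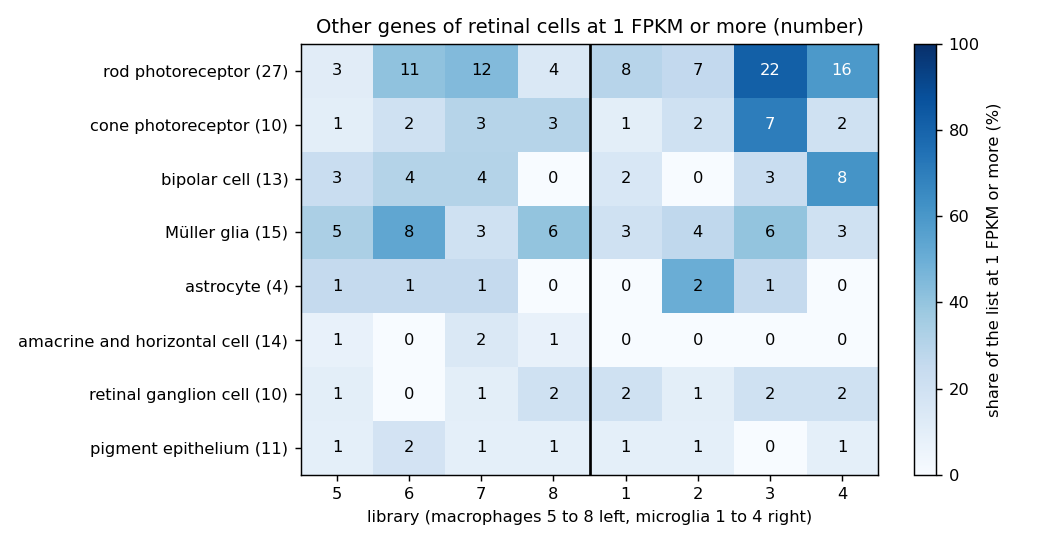
Number of further genes of each retinal cell type, without the 9 genes themselves, at 1 FPKM or more in each library, with the size of the list in parentheses; colour gives the share of the list (%), macrophages 5 to 8 stand left of the line and microglia 1 to 4 right of it. The number of rod genes ranges between 3 of 27 in macrophage 5 and 22 of 27 in microglia 3. At most 2 of the 14 amacrine and horizontal cell genes and at most 2 of the 10 ganglion cell genes reach this level in any library.

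The genes whose pattern was most like each of these profiles were sought among 7744 genes that reached 5 FPKM in a library, by Pearson r of log2(FPKM + 1) over the 8 libraries. These correlations are descriptions: the 8 points share the difference between populations and the same libraries. Glul was closest to Ctsd (r = 0.988), Phyhd1 (0.986), Plxdc2 (0.980), Ldhb (0.977) and Cd81 (0.968), each of them lower in every macrophage library than in every microglial library. Slc1a3 was closest to Slc40a1 (r = 0.965) and Epb4.1l3 (0.963), followed by Sall1 (0.955), Arsb (0.955) and Trappc2 (0.953). The rod sum was closest to Ilvbl (r = 0.956), Abcg2 (0.944), Cd151 (0.938), Tmsb15b2 (0.902) and Cpeb2 (0.900), none of which is in the rod list. Pcp2 was closest to Srgap2 (r = 0.987), Mt3 (0.975), Lgr4 (0.965), Whrn (0.962) and Cdhr1 (0.961), all of them highest in microglia 3. Rlbp1 was closest to Npff (r = 0.986), Olfr1179 (0.979), Mrpl4 (0.978), Rhov (0.972) and Wdr54 (0.968), which were all highest in macrophage 6, as Rlbp1 was.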

How the data were processed

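RNA was sequenced in 8 libraries, and each deposited table holds FPKM per gene as estimated by the authors, with 23021 rows for 22558 symbols. The submitters' processing notes name the build mm9 and the tools Cufflinks 2.1.1 and bcl2fastq 1.8.4. Which aligner was used is not given in the sources used here, nor is the annotation. Rows sharing a symbol were summed, and 9 symbols with a failed status in a library were left out; the 9 genes described here had 1 row each and no failed value. FPKM are not counts, so limma 3.58.1 in R 4.3.3 was run on log2(FPKM + 1) with an intensity trend, two-sided, Benjamini-Hochberg adjusted over the genes that reached 1 FPKM in 4 or more libraries; this scale understates the change of low genes. Single genes were also compared by an exact permutation test over all 70 assignments of 8 libraries to populations of 4. This model step was tested on simulated data. Depth was estimated from genes with 1 annotated transcript, assuming fragments of 150 bases, and is approximate. Strand is not stated. Loci are those of the files, written from base 1. Tables were made with scipy 1.17.1, numpy 2.4.6 and pandas 2.3.3 under Python 3.11.15.

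The genes, lists and tests were chosen with earlier results of these data known. Named genes are the 9 genes, up to 3 further genes with the highest mean FPKM in each list of retinal cells, the 5 genes most like each pattern, and marker genes beside a result. The 19 alternatives covered the pseudocount, filter, scaling, intensity trend, each library left out, microglia 2 and 3 left out, and a term for Y-linked RNA.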

Additional observations from a re-analysis of the deposited data

Results flagged for a closer look

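In 4 of the 18 sets of 4 libraries examined (9 genes in 2 populations), 1 library stood apart from the other 3 by Dixon's criterion, which divides its gap to the nearest library by the range of the set; chance alone marks about 1 in 20 sets. Gnat1 stood at 12.3 FPKM in macrophage 6, with a gap of 0.879 of the range. Pcp2 stood at 53.3 FPKM in microglia 3, with a gap of 0.895. Glul stood at 67.6 FPKM in microglia 4, with a gap of 0.908. Rlbp1 stood at 0.120 FPKM in microglia 4, where the other 3 microglial libraries were listed at 0, and this value corresponds to few fragments. With the other 3 at 0, any value above 0 would have been marked.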

How the results depend on the processing

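Over the 19 alternatives no gene of the 9 changed sign, and 6 of them kept their side of the threshold throughout: Gnat1, Sag, Pdc, Rcvrn, Pcp2 and Rlbp1. Glul passed after 4 scalings, at -1.88 (equal FPKM sum), -2.13 (upper quartile), -2.26 (median of ratios) and -2.14 (quantile). With 1 library left out it lay between -2.24 and -1.83 and passed without microglia 2 or macrophage 6 or 7. Slc1a3 was not called without a filter (-2.90) or with the term for Y-linked RNA (-2.50), and lay between -3.23 and -2.59 with 1 library left out. With 1 library left out, Pde6g lay between -3.31 and -1.91, and it was -1.49 without microglia 2 and 3. The number of the 9 genes called lower was 0 without a filter and with the term for Y-linked RNA, 2 under each of the 4 scalings, and between 0 and 3 with 1 library left out. Over all genes, 154 were called higher and 65 lower. Higher calls were 87 at a pseudocount of 0.1, 31 without a filter, 243 at an equal FPKM sum and 17 with the term for Y-linked RNA, and between 78 and 198 with 1 library left out. Lower calls were 20 without a filter, 110 by upper quartile and by median of ratios, 149 by quantile and 8 with the term for Y-linked RNA, and between 35 and 81 with 1 library left out. The median difference of all tested genes, 0.37, moved to 0.48, 0.28, 0.17 and -0.03 under the 4 scalings in the order given for Glul. The cause of these changes was not tested. The fit without a filter tests 20428 genes and also estimates the variances anew. No paired analysis was possible because the libraries are numbered 1 to 4 and 5 to 8 and share no number. Values at or below about 3 fragments, as for Rlbp1 in microglia, are imprecise at this depth.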

Other observations

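Genes known from other tissues of the eye were also unevenly spread, and were singled out after their values were seen. Cryba4, a crystallin of the lens, stood between 1.28 and 4.16 FPKM in macrophages and between 28.1 and 114 FPKM in microglia, a difference of -3.93 ± 0.63 (SE) in log2(FPKM + 1) that passed the test (limma adjusted p = 0.000558). Crybb1, below the level filter, averaged 0.0321 FPKM in macrophages and 1.74 FPKM in microglia. Cryaa was listed at 0 in all 8 libraries. Cryba1, Cryba2, Crybb2 and Crybb3 were listed at 0 in every microglial library. Cryab overlapped between the populations. Whether the RNA of Cryba4 and of Crybb1 came from lens tissue or was made by the microglia was not tested. Mlana, a melanosome protein of pigment cells, stood at 38.0 FPKM in microglia 2, at most at 0.603 FPKM in macrophages and at most at 0.709 FPKM in the other microglial libraries.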
